A study of Rattus norvegicus with 4 samples.

Results

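Memory or activated CD4 T cells were followed in the blood of rats after spinal cord injury. Each cell was defined by its own unique transcript counts (UMIs, molecules counted once after barcoding). Barcodes under 500 UMIs, under 200 genes or above 20% mitochondrial UMIs were left out. A kept barcode counted as a CD4 T cell with at least 2 UMIs of Cd3e, Cd3d and Cd3g together, no UMI of Cd8a or Cd8b, at least 1 UMI of Cd4 or Cd40lg, no UMI of Foxp3, and none of the B cell genes Cd79b and Ms4a1. It was a member when it also held at least 3 UMIs summed over Il2ra, Icos, Itgb1 and Anxa1, the 4 gate genes. By this rule 677 of 45986 kept barcodes were members, with 160 in the Sham library, 158 after injury alone (SCI) and, with cells given, 177 (MSC-i.t) and 182 (MSC-i.v). No member barcode occurred in more than 1 library, although pairs of libraries shared between 25 and 49 of their kept barcodes.

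After meeting antigen, a naive CD4 T cell divides and leaves memory cells behind. These gain adhesion molecules, receptors for chemokines of inflamed tissue and a faster recall response, and they leave the naive programme of lymph node homing and quiescence. Icos is a costimulatory receptor of activated T cells, Itgb1 is the beta 1 integrin chain that binds extracellular matrix and vascular adhesion molecules, Anxa1 is a phospholipid-binding annexin known from the resolution of inflammation, and Il2ra is the high-affinity chain of the interleukin 2 receptor. Gata3 is the transcription factor of type 2 helper cells and is also needed by T cells in general. Circulating memory CD4 T cells are commonly divided by chemokine receptors, with Cxcr3 on type 1 and Ccr6 on type 17 helper cells.

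The 4 libraries came from rat blood, with 1 library for each group. All rats of the design were described as injured by Allen's method, a weight-drop contusion of the spinal cord, and the sham group was listed among them; what the sham operation was is not given in the sources used here. The Sham and SCI groups received no cells according to the labels. The MSC-i.t group received umbilical cord mesenchymal stem cells (UC-MSC) intrathecally at 10000000 cells per kg, and the MSC-i.v group received them intravenously at 30000000 cells per kg, each at 72 hours and again at 7 days after injury. The design counted 40 rats, 10 in each group. Strain, age, the time of blood sampling and how many rats a library held are not given in the sources used here, and the deposited names tagged the SCI library "Pre" and the other 3 with 24 hours, with no explanation of the tags. If the SCI blood was drawn at another time, that time and the SCI group cannot be told apart in any ratio with SCI below. Route and dose differed together between the MSC groups and cannot be told apart. With 1 library per group, a difference between libraries has no replicate check, and the intervals below cover counting error only.

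The members' summed UMIs numbered 1139638 for Sham, 1137395 for SCI, 1436049 for MSC-i.t and 1018227 for MSC-i.v. Their median depth was 5828, 6446, 7435 and 5014 UMIs per cell, and values for the 4 libraries are given in this order throughout. The 6845 CD4 T cells without any UMI of the 4 gate genes, called gate-negative below, were the comparator; their median depth was 4856, 5561, 5309 and 3505 UMIs. Hemoglobin genes took 1.06%, 0.694%, 1.52% and 3.35% of the members' UMIs, and 2.5%, 0.772%, 2.38% and 4.35% in gate-negative cells. The SCI library stood apart from the other 3 in a set of genes in every kind of cell examined, as given with the library comparisons. Levels are CPM, a gene's UMIs scaled to a common library total of the cells summed.

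A share of the members carried RNA of other blood cells. With at least 10 UMIs of 9 monocyte markers (Lyz2, Csf1r, Cd68, Fcnb, Vcan, Fn1, Cst3, Ctss, Cybb) and 2 neutrophil markers (S100a8, S100a9) taken as the limit, 69 of 677 members were marked, against 8 of 6845 gate-negative cells (0.117%). The share of members was 15.6% for Sham (95% exact Clopper-Pearson interval 10.4 to 22.2%), 3.80% for SCI (1.41 to 8.08%), 7.34% for MSC-i.t (3.97 to 12.2%) and 13.7% for MSC-i.v (9.09 to 19.6%), so the Sham and MSC-i.v libraries held the most and SCI the fewest. The marked members were deeper, with medians of 11692, 9948.5, 11329 and 7976 UMIs against 5426, 6393.5, 6780.5 and 4554 in the rest. In them Itgb1 and Anxa1 made up 96.2%, 95%, 95.1% and 93.1% of the gate UMIs, against 76.3%, 62.3%, 70.1% and 71.6% in the rest. Of the 5 neutrophil markers, S100a8 and S100a9 were among the genes tested below. Platelet genes reached 5 UMIs in 74 members (10.9%) and in 192 gate-negative cells (2.80%). No gene of the B cell, dendritic cell and basophil marker lists was abundant enough to be tested against gate-negative cells.

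Results are therefore given both for all members and for the 455 members (79, 128, 130 and 118) that held fewer than 2 UMIs summed over Cd79a, Lyz2, Pf4 and Ppbp, genes of B cells, monocytes and platelets. Gate-negative cells filtered in the same way numbered 5346 (880, 1288, 1547 and 1631). Cells kept in either set are called filtered cells. The filter was uneven over libraries. It kept 49.4%, 81.0%, 73.4% and 64.8% of members and 61.6%, 88.0%, 81.5% and 79.4% of gate-negative cells, the fewest in Sham and the most in SCI. Whether the marked barcodes were doublets, adhering cells or free RNA was not tested.

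**Figure D1:**
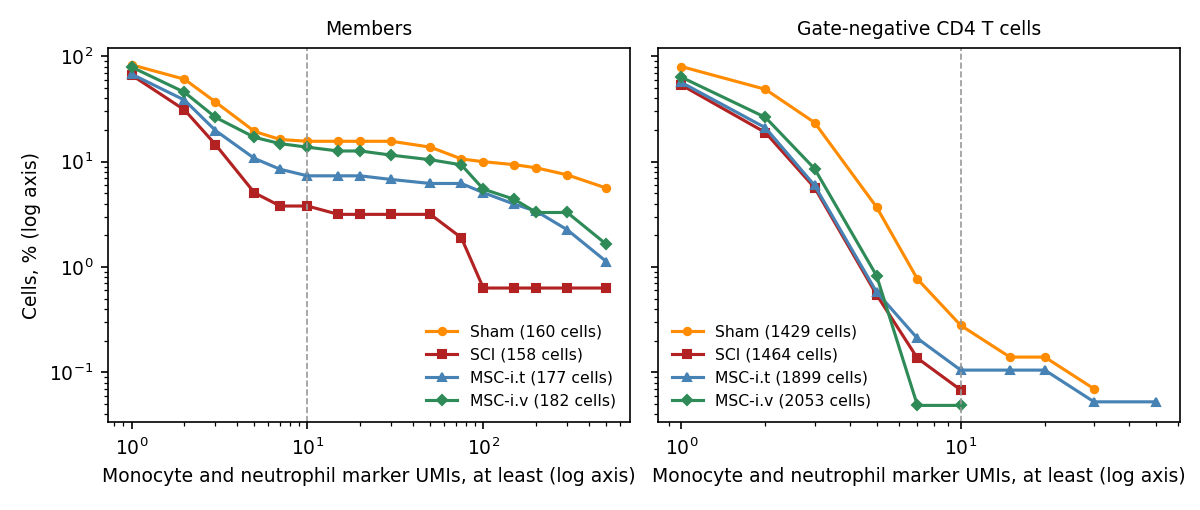
Percentage of cells (y axis, log scale) holding at least a given number of monocyte and neutrophil marker UMIs (x axis, log scale) in members (left) and gate-negative CD4 T cells (right), one line for each library. The dashed line stands at 10 UMIs, which 15.6% of Sham members and 3.80% of SCI members reached, against at most 0.280% of gate-negative cells in any library.

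The gate was filled mostly by Itgb1 and Anxa1. Itgb1 gave 44.4%, 43.0%, 43.3% and 51.3% of the members' gate UMIs. Anxa1 gave 37.0%, 21.1%, 28.9% and 22.6%, and Icos 15.7%, 31.0%, 24.6% and 21.6%. Il2ra gave the fewest, 2.88%, 4.82%, 3.15% and 4.41%. Members with neither an Icos nor an Il2ra UMI made up 35.6%, 14.6%, 23.7% and 36.8% of the 4 libraries. SCI members therefore held Icos more often than Sham or MSC-i.v members, and the marked barcodes above were fewest in the same library. Since the rule chose these genes, their levels are a description only.

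Anxa1 stood at 372 CPM for Sham members (95% exact Poisson interval 337 to 409), 200 for SCI (175 to 228), 242 for MSC-i.t (218 to 269) and 232 for MSC-i.v (203 to 263). Sham was the highest and the other 3 lay close together. In filtered members the values were 220, 209, 241 and 271 CPM, and the Sham value no longer stood above the others. Icos stood at 158, 295, 207 and 221 CPM in all members and at 232, 325, 227 and 265 CPM in filtered members, highest in SCI in both. Itgb1 was highest in MSC-i.v and lowest in MSC-i.t in both sets, at 446, 408, 364 and 525 CPM in all members and 422, 411, 323 and 583 CPM in filtered ones.

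The threshold cut through a graded range. At 2 gate UMIs, just outside, 666 cells had mean levels over the libraries of 13.2 CPM of Ccr6, 78.9 CPM of Cd44 and 799 CPM of Crip1. At 3 gate UMIs, just inside, 263 members had 22.0 CPM of Ccr6, 125 CPM of Cd44 and 1157 CPM of Crip1. At 5 or more gate UMIs, 300 members had 117 CPM of Ccr6, 207 CPM of Cd44 and 2864 CPM of Crip1. Cd27, a costimulatory receptor of naive and early memory cells, stood at 263 CPM at 2 UMIs, 225 at 3 and 111 at 5 or more. The naive gene Lef1 stood at 191 CPM in the cells with 5 or more gate UMIs, against 411 CPM in cells with none. The values at 2 and 3 gate UMIs were thus neighbours in a graded series. Deeper barcodes reach higher gate sums, and these values are given with no test.

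**Figure D2:**
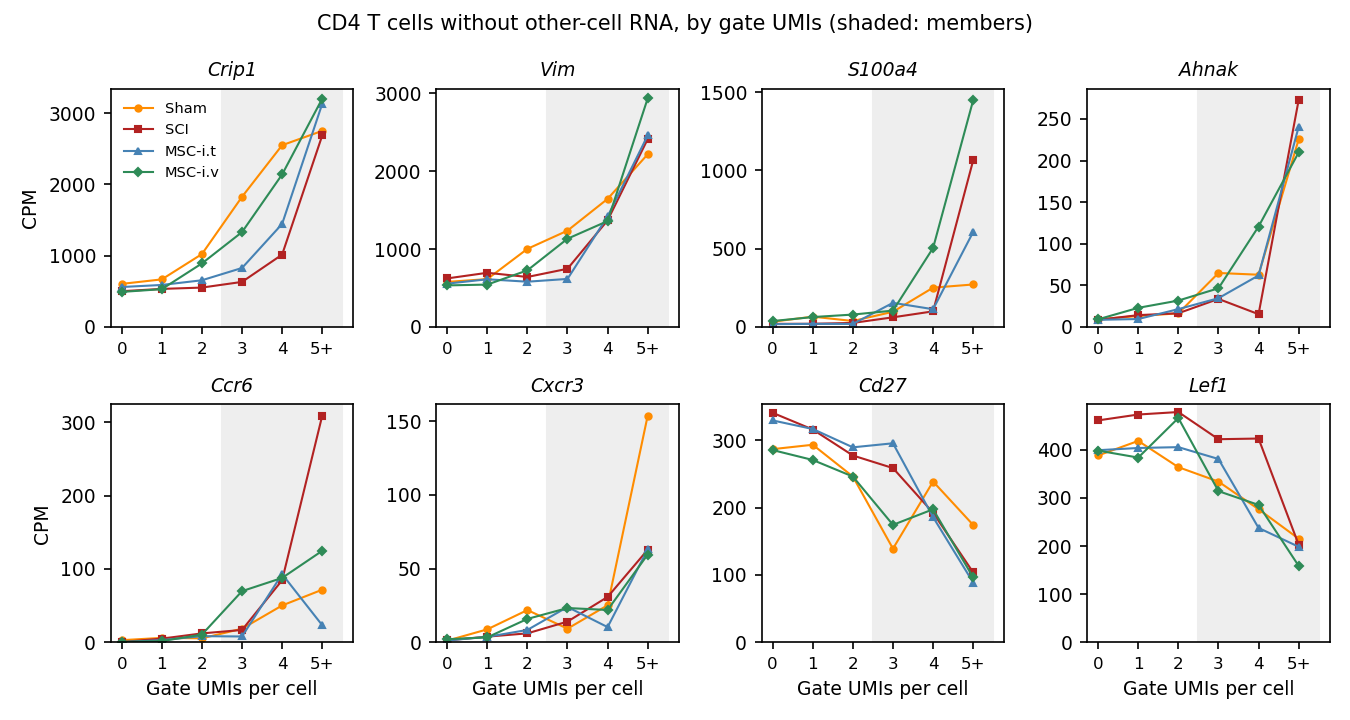
Level of 8 genes in filtered CD4 T cells (y axes, CPM) by the number of UMIs of the 4 gate genes in the cell (x axes, 0 to 5 or more), one line for each library; shading marks the members. In mean over libraries, Ccr6 went from 1.05 CPM at 0 gate UMIs to 132 CPM at 5 or more, and Cd27 from 311 to 116 CPM.

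What the members share beyond the gate genes was tested against gate-negative cells of the same library, with UMIs summed per library and kind of cell, in edgeR with the library as a block. The 14 genes of the rule were left out. The test took genes with a mean of at least 5 CPM over the 8 sums. A gene near 0 in gate-negative cells entered only through its level in members, and its call is a description. Of 7235 genes tested, 427 were higher in members (5.9%) and 61 lower (0.843%), with a Benjamini-Hochberg adjusted p below 0.05 and at least a 2-fold difference. Among filtered cells 214 of 7058 were higher (3.03%) and 73 lower (1.03%). These shares over all genes are the background for the counts of list genes below. The 2 fits had 179 higher and 42 lower genes in common. The 4 libraries, of different groups, stand as the repeats, so the p-values measure the spread of a within-library difference over them. Members formed a deeper set than the comparator; between 3000 and 8000 UMIs on both sides, 256 genes were higher and 50 lower.

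Genes of monocytes and granulocytes led the test over all members. Of the 15 highest named genes, 10 were too low in filtered cells to be tested there, including Csf1r and Spi1 of monocytes and Lcn2, Camp and Ngp of granulocyte granules, and Fn1 and Fcnb were tested and not called. With DESeq2 the granulocyte genes were not called in all members either: the adjusted p was 0.71 for Lcn2, 0.728 for Ngp, 0.0904 for Camp and 0.0675 for S100a9, and 0 of 2 neutrophil markers passed (2 in edgeR). Of the monocyte markers, 7 of 9 tested were higher in all members (7 with DESeq2) and 0 of 6 tested in filtered ones in edgeR, where 1 was lower at an unadjusted p below 0.05. Their median log2 difference was 4.21 in all members and -0.03 in filtered ones. The filter used Lyz2, itself 1 of the 9 monocyte markers, so this fall was set in part by the filter and is a description. A single Sham barcode held 839 of the 843 Camp UMIs of Sham members. The other 3 of the 15, Ccr6, Capg and S100a4, were called in both sets. All 15 highest named genes of the filtered test were also called in all members.

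The chemokine receptors Ccr6 and Cxcr3 were among the genes furthest apart. Ccr6, the receptor for Ccl20, stood at 44.9, 161, 31.1 and 104 CPM in filtered members and at 2.94, 0.403, 0.230 and 0.648 CPM in filtered gate-negative cells. Every member value lay above every gate-negative value, and edgeR gave a log2 difference of 6.37 ± 0.338 (SE, 4 libraries; adjusted p = 8.01e-15). Cxcr3, the receptor for interferon-induced chemokines, stood at 69.3, 38.9, 38.1 and 43.8 CPM against 1.13, 1.34, 1.26 and 2.11 CPM. The groups did not overlap, at 4.70 ± 0.262 (SE; edgeR adjusted p = 2.35e-14). Ccr7, which guides naive cells into lymph nodes, was not separated, at -0.28 ± 0.189 (adjusted p = 0.393), while Cxcr4, the receptor for Cxcl12, was at -0.97 ± 0.182 and under 2-fold. The lists of type 1 and type 17 helper genes, which hold Cxcr3 and Ccr6, had 12 and 11 genes, most of the latter too low to test. Of those tested, 5 of 6 and 2 of 2 were higher in all members, and 5 of 6 and 1 of 1 in filtered ones. A gene as low in gate-negative cells as Ccr6 reaches the test only through its level in members, so these counts are a description. The type 1 list also holds Ccl5, whose direction in filtered cells turned without MSC-i.t, as given below. Of the chemokine receptor list, 3 of 7 tested genes were higher in all members and 2 of 6 in filtered ones, and 0 were lower (edgeR; 2 and 1 at an unadjusted p below 0.05).

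Ccr6 and Cxcr3 were each seen in a minority of members. Cxcr3 had a UMI in 24 of 160, 20 of 158, 17 of 177 and 23 of 182 members (15%, 12.7%, 9.6% and 12.6%), against 0.42 to 0.633% of gate-negative cells. B cells, which mostly lack Cxcr3, had it in 0 to 1.55% of cells at median depths of 2849, 3336, 3178 and 2144.5 UMIs. At 3000 UMIs per cell the members' shares were 11.6%, 15.2%, 9.23% and 13%. Ccr6 had a UMI in 12.5%, 20.9%, 14.1% and 20.3% of members and in 0.105 to 0.56% of gate-negative cells. B cells express Ccr6 themselves and had it in 28.9 to 41.9% of cells, so they are no background for it. Over the 4 libraries, 10 members held both receptors, where 14.3 would be the product of the 2 shares; given Ccr6, 12 members held Ccr4 and the product was 3.57. Cxcr3 and Ccr4 met in 3 members, with a product of 2.61. These counts are a description without a test, since cells of 1 library are not replicates.

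Less abundant receptors fell below the test. Ccr4, a receptor of skin-homing and type 2 cells, stood at 3.51, 5.28, 3.48 and 6.87 CPM in members against at most 0.236 CPM in gate-negative cells. Ccr10 was low in Sham, SCI and MSC-i.t members, at 3.51, 1.76 and 0.696 CPM, and stood at 26.5 CPM (interval 17.5 to 38.6) in MSC-i.v, from 27 UMIs in 8 cells. In filtered MSC-i.v members it stood at 13.0 CPM. Gpr15, a homing receptor of memory T cells, stood at 11.4, 11.4, 6.27 and 9.82 CPM against at most 0.377 CPM. The CPM that 3 UMIs give was 2.63, 2.64, 2.09 and 2.95 in members, and values under it cannot be told from 0.

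Among helper transcription factors, 1 of 8 tested was higher in all members and 1 of 7 in filtered ones, in both Maf. Maf, a factor of type 2, type 17 and follicular helper cells, stood at 16.3, 17.8, 15.0 and 14.6 CPM in filtered members and at 0.226, 0.268, 0.115 and 1.13 CPM in gate-negative cells, a log2 difference of 4.97 ± 0.490 (SE; edgeR adjusted p = 3.46e-09). Member and gate-negative values did not overlap. Maf reached the test only through its level in members, so its count and p-value are a description. Gata3, the one marker given for these cells that the rule did not use, stood at 118, 118, 111 and 110 CPM against 75.0, 80.8, 76.7 and 76.1 CPM. The groups did not overlap here either, yet the log2 difference was small, at 0.34; as a marker of these cells it is given as a description. Tbx21, the lineage-defining factor of type 1 cells, was under the test's limit and stood at 1.75, 2.64, 4.18 and 9.82 CPM in all members. Rora, a nuclear receptor of type 17 helper cells, stood at 9.65, 12.3, 6.96 and 8.84 CPM against at most 0.377 CPM in gate-negative cells. Batf, an AP-1 family factor of effector T cells, was at 0.89 ± 0.116 in filtered cells (edgeR adjusted p = 6.17e-07), under 2-fold.

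Most effector cytokines were listed at or near 0. Il17a, Il17f, Il22, Il5, Il13, Il10 and Tnf had 0 UMIs in members, and between 0 and 5 UMIs over all kept barcodes of the 4 libraries. Mif, which most cells are known to hold, also had 0 UMIs over all kept barcodes, and Ltb, known from T cells, had 24 and none in members. A 0 in these files is therefore given as a listing and not as a limit on the level. Il4 had 1 UMI and Ifng 4 UMIs over all members. Il2, the growth factor of T cells, stood at 7.90, 7.03, 5.57 and 5.89 CPM, against 0.683, 0.473, 0.186 and 0.377 CPM in gate-negative cells. The receptor parts were better covered: Il2rb, the shared beta chain of the interleukin 2 and 15 receptors, stood at 55.1, 34.5, 46.1 and 40.6 CPM in filtered members against 6.10, 4.70, 4.48 and 6.32 CPM, at 2.81 ± 0.207 (edgeR adjusted p = 1.04e-11). Il18r1, through which interleukin 18 acts on effector T cells, was at 2.18 ± 0.199 (adjusted p = 8.14e-10), with 26.5, 53.3, 38.1 and 42.2 CPM against 8.82, 8.86, 6.78 and 6.96 CPM. Il4r was at -0.89 ± 0.112 and Il7r at -0.34 ± 0.111, both under 2-fold.

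Adhesion and cytoskeletal genes of memory cells had the highest count of called genes of the 23 lists, of which theirs was the longest. Of 23 tested, 14 were higher in all members and 13 in filtered ones, and 0 were lower, also at an unadjusted p below 0.05 in edgeR and with DESeq2; the list's median log2 difference was 1.41 and 1.38, against 0.010 and 0.007 over all genes tested. Ahnak, a giant scaffold protein under the plasma membrane, stood at 128, 141, 128 and 151 CPM in filtered members against 9.27, 8.59, 8.62 and 9.23 CPM, at 3.73 ± 0.122 (edgeR adjusted p = 1.81e-19). The 4 libraries agreed closely in this gene. S100a4, a calcium-binding protein of motile cells, stood at 192, 529, 341 and 934 CPM against 33.7, 20.1, 18.2 and 37.9 CPM, at 3.97 ± 0.164 (adjusted p = 2.26e-17). It also varied most among these genes between libraries, with MSC-i.v highest and Sham lowest in filtered members. In all members Sham was highest, at 1225 CPM, and SCI lowest, at 622 CPM. Capg, an actin-capping protein, stood at 53.0, 87.8, 72.2 and 208 CPM against 4.97, 1.88, 1.15 and 3.24 CPM. By share of tested genes higher in all members, this list had 60.9%. The type 1 and class II lists had 83.3% each and the type 17 list 100%. Against the Foxp3-positive cells described below, 1 of this list's 23 tested genes was higher and 1 lower, with a median of -0.13.

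Genes of the same list that gate-negative cells also held in quantity had smaller folds. Crip1, a LIM-domain protein, stood at 2312, 1634, 1937 and 2524 CPM in filtered members against 605, 502, 561 and 492 CPM, at 1.72 ± 0.0635 (edgeR adjusted p = 1.51e-18). Vim, the intermediate filament vimentin, was at 1.39 ± 0.0642 and Cd44, the hyaluronan receptor used as a memory marker in rodents, at 1.38 ± 0.0879. Anxa2 and Anxa5, relatives of the gate gene Anxa1, were at 1.44 ± 0.0764 and 2.36 ± 0.198. Lgals3, which monocytes hold in quantity, went from 3.76 in all members to 1.63 ± 0.260 in filtered ones. Itga4, the partner of Itgb1 in the integrin VLA-4, was at 0.95 ± 0.0884 in filtered cells and just short of 2-fold, with 208, 211, 205 and 166 CPM against 75.7, 109, 80.1 and 85.3 CPM.

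Costimulatory and checkpoint receptors were called in both directions. In filtered cells 6 of 16 tested were higher and 2 lower, beside 3.03% and 1.03% of all genes tested. Against the Foxp3-positive cells described below, 4 of 17 tested genes of this list were lower in members and 0 higher. Pdcd1 stood at 12.2, 13.3, 11 and 14.6 CPM against 0.904, 1.34, 0.690 and 0.810 CPM, at 3.5 ± 0.419 (edgeR adjusted p = 1.36e-07). Like Maf, it reached the test only through its level in members, so its call is a description. Ctla4, an inhibitory receptor also abundant in regulatory T cells, stood at 14.3, 24.5, 11 and 32.5 CPM against 3.39, 4.03, 5.06 and 3.56 CPM, at 2.05 ± 0.305 (adjusted p = 6.02e-06). Tnfrsf4, the OX40 receptor of recently activated cells, stood at 0, 12.2, 9.02 and 26.0 CPM in filtered members, so that the Sham library had none. Cd200 was at 4.23 ± 0.438. Cd69, an early activation antigen, lay at the 2-fold limit, at 1.02 ± 0.138; without the Sham, MSC-i.t or MSC-i.v library it was at 0.95, 0.93 and 0.94. Lag3 was at 1.92 and was not called without MSC-i.t, at 1.38 with an edgeR adjusted p of 0.0531. Cd27 stood at 169, 178, 185 and 133 CPM against 287, 341, 329 and 285 CPM, at -1.12 ± 0.0737 (adjusted p = 1.05e-12), and Cd96, an adhesion receptor for Cd155, at -1.09 ± 0.157; both were lower. Cd96 was short of 2-fold without SCI, at -0.98, or without MSC-i.v, at -0.95.

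**Figure D3:**
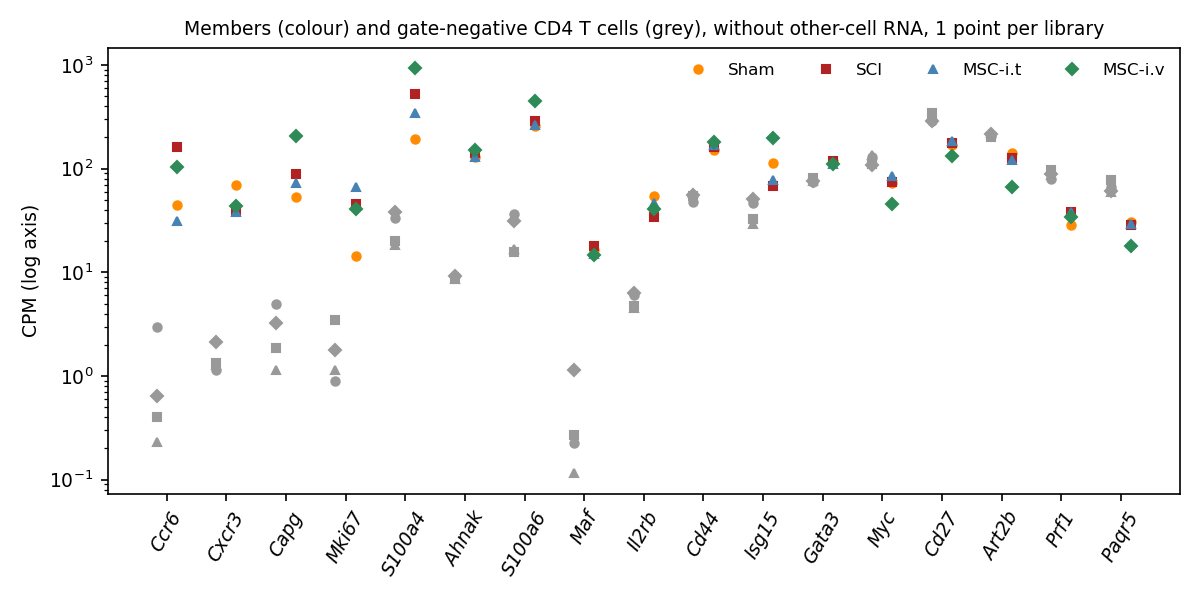
Level of 17 genes (CPM, log axis) in filtered members (coloured points) and filtered gate-negative cells (grey points), 1 point for each library. Ccr6 and Cxcr3 of members lie at 31.1 CPM or above while gate-negative values stay at 2.94 CPM or below, and Cd27 and Prf1 of members lie below every gate-negative value.

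Of 16 naive genes tested, 1 was called lower in each set, Art2b, a rat T cell surface ADP-ribosyltransferase (RT6) of mature resting cells. It stood at 141, 126, 121 and 66.6 CPM in filtered members against 206, 203, 222 and 214 CPM, at -1.11 ± 0.107 (edgeR adjusted p = 1.94e-09), and at -0.93, short of 2-fold, without MSC-i.v. Lef1, a transcription factor of naive T cells, was at -0.81 ± 0.0678 and Satb1, a chromatin organiser, at -0.75 ± 0.0999. Tcf7, which naive and memory stem-like cells both hold, was at 0.01 ± 0.117 (adjusted p = 0.968). Of 14 tested genes of the T cell receptor complex and its signalling, 0 were called in edgeR in all members or in filtered ones and 0 with DESeq2; at an unadjusted p below 0.05 there were 6 and 7, all under 2-fold. Of the 7 Gimap genes 0 were called in the same fits, with 5 and 2 at an unadjusted p below 0.05.

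Cell cycle genes were called in part. In filtered cells 6 of 14 tested (Mki67, Top2a, Mcm5, Stmn1, Ccnb1 and Birc5) were higher and 0 lower in edgeR. At an unadjusted p below 0.05 in edgeR, 1 was lower. Over all genes tested 3.03% were higher and 1.03% lower. Against the Foxp3-positive cells described below, 6 of 19 tested genes of this list were lower in members and 0 higher. Mki67, a marker of cycling cells, stood at 14.3, 45.6, 66.2 and 40.6 CPM against 0.904, 3.49, 1.15 and 1.78 CPM, at 4.33 ± 0.286 (edgeR adjusted p = 1.05e-12). Top2a, the topoisomerase of dividing cells, stood at 8.16, 50, 92.2 and 11.4 CPM. Its 92 UMIs in MSC-i.t came from 3 cells, 51 of them from 1, and its 45 UMIs in SCI from 4 cells. Mki67 came from 2, 11, 10 and 9 filtered members, whereas Stmn1, a microtubule regulator, came from 39, 49, 75 and 55. Cenpf, a kinetochore protein, had 110 UMIs in MSC-i.t from 4 cells, 60 of them in 1. The call for Ccnb1 was lost without MSC-i.t, at 1.18 with an adjusted p of 0.0641.

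Interferon-induced and antigen presentation genes were each higher in part. Of 17 interferon genes tested in filtered cells, 4 were higher and 1 lower. Isg15, a ubiquitin-like modifier, stood at 112, 67.8, 77.2 and 197 CPM against 46.6, 32.8, 29.1 and 50.5 CPM, at 1.24 ± 0.124 (edgeR adjusted p = 4.71e-09). Oas1a was at 1.36 ± 0.228, whereas Mx2 at 1.08 and Rtp4 at 1.04 were lost without SCI, at 0.53 and 0.90, and Rsad2 was lower, at -1.06 ± 0.239, and at -0.92 without SCI. Isg20, an interferon-induced exonuclease outside that list, stood at 53.0, 80.0, 46.1 and 110 CPM against 24.0, 20.4, 17.9 and 23.2 CPM, at 1.54 ± 0.151. Of 6 class II genes 5 were higher in all members, but in filtered cells 2 of 5 were, RT1-Ba at 1.51 ± 0.233 and RT1-Db1 at 1.17 ± 0.186. RT1-Db1 was at 0.87 without MSC-i.v. Cd74, the invariant chain, was at 1.88 in all members and at 0.45 (adjusted p = 0.0635) in filtered ones.

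Cytotoxic genes were called in both directions, and 3 of 9 tested were higher and 1 lower in filtered cells. Prf1, the pore-forming perforin, was lower, with 28.5, 37.8, 38.1 and 34.1 CPM in filtered members against 79.8, 96.8, 86.2 and 87.9 CPM, at -1.53 ± 0.124 (edgeR adjusted p = 7.17e-11). Cst7, an inhibitor of granule proteases, was higher at 3.09 ± 0.412. Ccl5 was called higher at 1.54, but 313 of the 392 UMIs in filtered MSC-i.t members came from 1 cell. Without the MSC-i.t library Ccl5 was at -1.13 with an adjusted p of 0.000778, the opposite direction. Gzmm likewise went from 1.34 to -1.03 (adjusted p = 0.119) without MSC-i.t, and to 1.78 with an adjusted p of 0.0592 without SCI.

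Genes lower in members outside the lists included Paqr5, a membrane progesterone receptor, at 30.6, 28.9, 29.1 and 17.9 CPM in filtered members against 66.9, 78.3, 59.0 and 61.1 CPM (-1.52 ± 0.149, edgeR adjusted p = 3.45e-09). Thrb, the thyroid hormone receptor beta, was at -1.31 ± 0.178 and Pde2a, a cyclic nucleotide phosphodiesterase, at -1.23 ± 0.210. The erythroid genes Slc4a1 and Alas2 were also lower in filtered cells. The call for Slc4a1 in all members was lost between 3000 and 8000 UMIs, at -0.66 (edgeR adjusted p = 0.277), and without the library block, at -1.31 (adjusted p = 0.135); Alas2 in filtered cells was at -0.92 without SCI and at -0.72 without MSC-i.v. Higher outside the lists were Slfn4, an interferon-responsive schlafen gene, with 79.5, 37.8, 49.1 and 63.3 CPM against 5.43, 5.77, 7.13 and 5.83 CPM (2.92 ± 0.198), Zbtb32, a zinc finger repressor of activated lymphocytes (2.74 ± 0.199), and Gna15, a G protein alpha subunit (2.59 ± 0.228).

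Promoters of the genes that were higher in filtered members were read for 6 short motifs on both strands, in the 250 bases before each start in the RefSeq table of build GRCr8. A promoter was found for 160 of the 214 genes. The AP-1 motif TGANTCA was in 16 of them (10%), in 1 of 45 promoters of lower genes (2.22%), in 207 of 5436 promoters of all genes tested (3.81%) and in 1747 of 27457 promoters of the table (6.36%). ETS, as CCGGAA, was further apart in percentage points and in the other direction, at 17.5% against 30.2% of tested genes. For the other 4, TCACACC (T-box) was in 3.75% against 2.74%, AGATAA, of GATA factors, in 5% against 5.15%, AGGTCA (ROR) in 11.3% against 9.81% and TGTGGT (RUNX) in 9.38% against 10.6%. These shares are descriptions, and a match is not a bound site. The sequences below show the Ccr6 promoter, of the gene with the highest log2 difference among those named in the filtered test, and the promoters of Slfn4 and Isg20, as named genes with AP-1 matches; they run 5′ to 3′ on the gene's strand, and capitals mark the matches. In Ccr6 these are GATA at 161 and ROR at 67 bases before the start, both read on the opposite strand, in Slfn4 AP-1 at 133 and in Isg20 AP-1 at 195 and 63 bases before it.
Ccr6, chr1:55046129-55046378, - strand: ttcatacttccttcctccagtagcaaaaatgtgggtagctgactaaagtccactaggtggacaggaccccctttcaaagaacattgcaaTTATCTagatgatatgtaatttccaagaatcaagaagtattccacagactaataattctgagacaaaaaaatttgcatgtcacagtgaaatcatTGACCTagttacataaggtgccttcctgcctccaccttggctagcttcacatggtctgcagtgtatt
Slfn4, chr10:68491970-68492219, + strand: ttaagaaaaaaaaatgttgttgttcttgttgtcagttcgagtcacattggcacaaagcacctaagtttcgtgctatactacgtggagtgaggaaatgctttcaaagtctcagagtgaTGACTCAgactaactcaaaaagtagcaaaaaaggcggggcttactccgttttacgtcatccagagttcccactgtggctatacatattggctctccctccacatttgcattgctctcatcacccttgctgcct
Isg20, chr1:142239809-142240058, + strand: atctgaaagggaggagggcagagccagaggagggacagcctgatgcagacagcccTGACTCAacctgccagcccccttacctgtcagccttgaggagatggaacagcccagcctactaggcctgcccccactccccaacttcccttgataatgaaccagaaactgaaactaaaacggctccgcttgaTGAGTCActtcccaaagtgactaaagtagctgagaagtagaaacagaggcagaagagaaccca

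The kind of CD4 T cell nearest to the members by rule was the Foxp3-positive one past the same gate, with 33, 18, 26 and 27 cells. Against these, 111 of 7474 genes were higher in members (1.49%) and 66 lower (0.883%), in edgeR as above. Genes of granulocytes and monocytes led the higher ones, with Lcn2, Camp, S100a8 and S100a9 at the top. Of 9 monocyte markers tested, 7 were higher in members. Without other-cell RNA 13 genes were higher and 14 lower, but that filter removed 22, 5, 15 and 6 of the Foxp3-positive cells, so few were left. How far the drop came from other-cell RNA or from lost cells was not tested. Leaving out 1 library moved the counts to 43 without Sham and 66 without SCI for higher genes, and to 22 without Sham, 17 without SCI, 38 without MSC-i.v and 141 without MSC-i.t for lower ones. The list of regulatory genes was lower in 6 of 9 tested, and 0 were higher, also at an unadjusted p below 0.05. Foxp3 itself chose the 2 kinds of cell, so this count is a description. Against gate-negative cells, 3 of 6 tested genes of this list were higher, in all members and in filtered ones. Over all genes tested there, 5.9% and 3.03% were higher. Capg stood at 162, 90.6, 86.3 and 193 CPM in all members against 603, 522, 298 and 672 CPM, at -1.90 ± 0.127 (adjusted p = 2.55e-11) and at -1.75 in filtered cells. Il2rb was at -1.87 and Tnfrsf18, the GITR receptor, at -1.19; both were also called in filtered cells, at -1.51 and -1.14. Ctla4 at -1.60, Lrrc32 at -3.33 and Prdm1 at -2.52 were not called there, at -1.12, -3.28 and -2.26, with adjusted p of 0.425, 0.216 and 0.179. Gata3, again as a description, stood lower in members, with 113, 113, 100 and 97.2 CPM against 163, 327, 215 and 281 CPM (a log2 difference of -1.09), and at -0.88 in filtered cells. Ccr6 was at 1.27 (adjusted p = 0.0629) and, in filtered cells, higher at 2.01 (adjusted p = 0.000346). Cxcr3 did not separate the 2 kinds of cell, at 0.06 ± 0.309 (adjusted p = 0.972).

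The question of the design was how injury and the 2 routes of UC-MSC related to these cells. Members were 7.05% of CD4 T cells for Sham (95% exact Clopper-Pearson interval 6.03 to 8.18%), 6.46% for SCI (5.52 to 7.51%), 5.96% for MSC-i.t (5.14 to 6.88%) and 6.23% for MSC-i.v (5.38 to 7.17%). The 4 intervals overlapped. With each cell thinned to 3000 UMIs the shares were 3.95%, 3.6%, 2.96% and 4.01%, on 1745, 1831, 2196 and 1722 CD4 T cells, again with overlapping intervals. Among filtered cells they were 5.79%, 5.99%, 5.44% and 5.21%. The log2 ratio of shares was -0.13 for SCI over Sham (interval -0.45 to 0.20), -0.12 for MSC-i.t over SCI, -0.05 for MSC-i.v over SCI and -0.06 for MSC-i.t over MSC-i.v. At the threshold of 3 UMIs the shares did not differ beyond counting error. With 2 gate UMIs as the threshold the share was 12.8%, 14.4% (13.1 to 15.9%), 13.1% (11.9 to 14.4%) and 10.6% (9.52 to 11.8%), so the MSC-i.v interval lay below those of SCI and MSC-i.t. MSC-i.v cells were also the shallowest. As a share of all T cells, members were 2.96% (2.52 to 3.45%), 2.88%, 2.6% and 2.17% (1.87 to 2.5%); the MSC-i.v interval lay below that of Sham. CD4 T cells were 34.8% of MSC-i.v T cells against 42.0% in Sham.

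**Figure D4:**
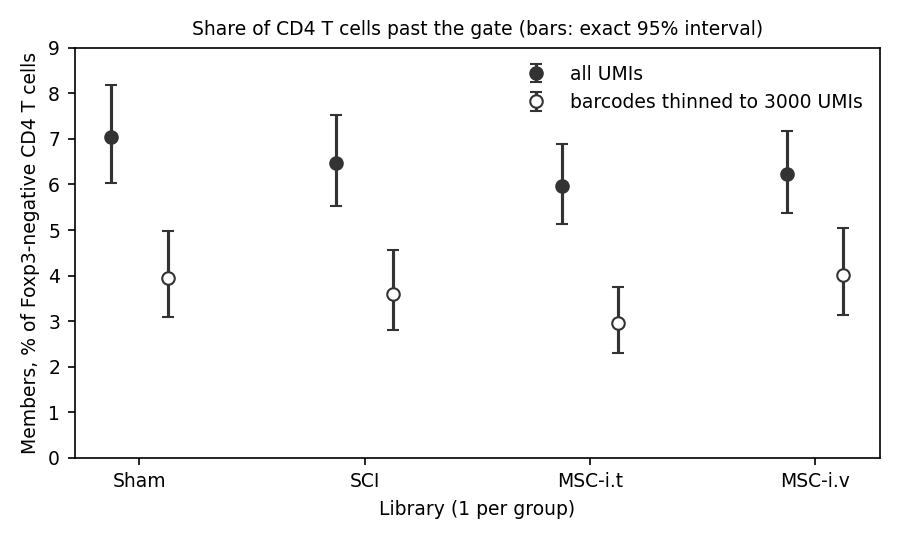
Members as a percentage of CD4 T cells in each library, with exact 95% intervals, on all UMIs and after thinning every cell to 3000 UMIs. The intervals of the 4 libraries overlap in both, at 5.96 to 7.05% on all UMIs and 2.96 to 4.01% after thinning.

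Levels within members were then compared between libraries as ratios of CPM, with exact conditional binomial intervals and no test over animals. Comparisons against SCI share that library. Of 6005 genes with a mean of at least 10 CPM, 637 were past 2-fold for SCI over Sham (10.6%), 479 for MSC-i.t over SCI (7.98%), 611 for MSC-i.v over SCI (10.2%) and 302 for MSC-i.t over MSC-i.v (5.03%). Among filtered members 707 (12.3%), 528 (9.17%), 576 (10%) and 458 (7.95%) of 5758 were. By direction, SCI over Sham had 347 higher (5.78%) and 290 lower (4.83%) genes in all members, and 538 (9.34%) and 169 (2.94%) in filtered ones. MSC-i.t over SCI had 156 higher (2.6%) and 323 lower (5.38%), and 115 (2%) and 413 (7.17%) in filtered ones. MSC-i.v over SCI had 223 higher (3.71%) and 388 lower (6.46%), and 130 (2.26%) and 446 (7.75%) in filtered ones. MSC-i.t over MSC-i.v had 158 higher (2.63%) and 144 lower (2.4%), and 227 (3.94%) and 231 (4.01%) in filtered ones. Of the genes past 2-fold in all members, 32.6% were higher for MSC-i.t over SCI and 36.5% for MSC-i.v over SCI, but 44.2% and 49.1% with TMM factors, so the split moved with the scaling. TMM factors moved the median log2 ratio of MSC-i.v over SCI from -0.10 to 0.02. The spread of the log2 ratios (SD over genes) was 0.73, 0.61, 0.66 and 0.48 in members and 0.47, 0.48, 0.46 and 0.28 in gate-negative cells, whose sums hold more UMIs.

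In SCI over Sham, the highest ratios belonged to genes that also stood apart in other cells of the SCI library. The 8 highest genes included Cdv3, Dapk3, Taf10, Snx20, Purb, Rab21 and Wac, and all 8 were past 2-fold in filtered members, in gate-negative cells and in B cells. Cdv3 stood at 10.5, 194, 11.1 and 24.6 CPM in members, a log2 ratio of 4.21 (3.37 to 5.18), with 3.99 in gate-negative cells and 3.88 in B cells. Taf10, a subunit of the general transcription factor TFIID, stood at 24.6, 244, 12.5 and 41.2 CPM, at 3.31, with 3.56 in gate-negative cells and 3.20 in B cells. SCI alone was high in both. Jund, an AP-1 subunit, stood at 110, 532, 117 and 106 CPM, at 2.28 (2 to 2.57), with 2.10 in gate-negative and 1.85 in B cells. Fkbp5, a glucocorticoid-induced cochaperone, stood at 16.7, 48.4, 18.1 and 16.7 CPM, at 1.54 (0.76 to 2.37), with 1.30 and 1.10. The glucocorticoid list had a median of 0.67 in members over 8 genes and of 1.00 in gate-negative cells, against 0.03 over all genes of members. Of 538 filtered genes past 2-fold upward, 170 (31.6%) were past it in gate-negative cells too. For MSC-i.t over MSC-i.v the same counts were 0 of 227 upward and 27 of 231 (11.7%) downward. The share of all genes past 2-fold in gate-negative cells is not given here, so these overlaps have no background beside them. In the 79 filtered Sham members, 3 UMIs gave 6.12 CPM.

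The lowest SCI over Sham ratios, Camp, S100a9, S100a8, Lcn2, Ngp, Cd302, Alox15 and Fcnb, were of myeloid genes for the most part, and of the 5 with a ratio in filtered members Cd302, Alox15 and Fcnb were past 2-fold. Camp, Lcn2 and Ngp had 0 UMIs there in both libraries. Marked barcodes were 15.6% of Sham members and 3.80% of SCI members. Cd74 stood at 309, 44.8, 79.4 and 138 CPM, a ratio of -2.78 (-3.24 to -2.36), but in filtered members at 34.7, 22.2, 30.1 and 86.1 CPM, with -0.64 (-1.65 to 0.38). S100a4 changed sides. It stood at 1225, 622, 760 and 1172 CPM in all members, lowest in SCI, with a ratio of -0.98 (-1.11 to -0.85). In filtered members it stood at 192, 529, 341 and 934 CPM, with 1.46 (1.14 to 1.80), and in the 608 members with fewer than 10 myeloid UMIs, a set chosen after seeing the data, at 637, 495, 497 and 873 CPM. Its order between Sham and SCI therefore depended on which members were kept, whereas MSC-i.v was above SCI in all 3 sets.

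Ccr6, described above against gate-negative cells, also had unlike levels in the members of the 4 libraries. The level was 40.4 CPM for Sham (interval 29.6 to 53.8), 135 for SCI (114 to 158), 38.3 for MSC-i.t (28.9 to 49.9) and 91.3 for MSC-i.v (73.7 to 112). SCI was highest, MSC-i.v next, and Sham and MSC-i.t did not differ beyond counting error. The ratio of SCI over Sham was 1.74 (1.25 to 2.25) in all members and 1.84 (1.19 to 2.56) in filtered ones, with 0.49 in B cells. MSC-i.t over SCI was -1.81 (-2.28 to -1.36), and -2.37 in filtered members, with -0.10 in B cells. MSC-i.v over SCI was -0.56 (-0.95 to -0.18). The UMIs came from 20, 33, 25 and 37 cells, with at most 16 in 1 SCI cell. After thinning, Ccr6 was seen in 11.6%, 28.8%, 15.4% and 13% of 69, 66, 65 and 69 members, so that the place of MSC-i.v was not kept. Cxcr3 stood at 44.8, 35.2, 32.0 and 32.4 CPM, with -0.35 (-0.98 to 0.28) for SCI over Sham and -0.83 (-1.56 to -0.11) in filtered members.

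Gata3 was level over the 4 libraries, at 113 CPM (94.5 to 134), 113 (93.9 to 134), 100 (84.6 to 118) and 97.2 (79.0 to 118), and no pair differed beyond its counting error. It was seen in 46.9%, 46.8%, 46.9% and 39.6% of members against 28.8%, 34.3%, 32.2% and 23.9% of gate-negative cells and at most 0.621% of B cells. No gene of the T cell receptor list passed 2-fold in any of the 4 comparisons, out of 14. Adhesion genes had a median SCI over Sham ratio of -0.58 over 22 genes in all members and of 0.02 over 21 in filtered ones.

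In MSC-i.t over SCI, the 8 lowest named genes, Dapk3, Taf10, Cdv3, Snx20, Purb, Alyref, Marc2 and Bri3, were all past 2-fold in filtered members, gate-negative cells and B cells as well. Of 413 filtered genes past 2-fold downward, 203 (49.2%) were past it in gate-negative cells. The same held for MSC-i.v over SCI, where the 8 lowest were Purb, Cdv3, Dapk3, Otulin, Ybx1, Rab21, Ube2m and Gnas, and 142 of 446 filtered genes (31.8%) were shared with gate-negative cells. Here too the share over all genes of gate-negative cells is not given. Fkbp5 was at -1.42 (-2.15 to -0.72) for MSC-i.t over SCI, with -1.51 in gate-negative and -1.77 in B cells. The highest MSC-i.t over SCI ratio was that of Ccl5, at 43.9, 11.4, 276 and 62.9 CPM, at 4.59 (3.80 to 5.51). Without the 1 MSC-i.t cell described above, a value added after seeing the data, the level was 58.3 CPM and the ratio 2.35 (1.5 to 3.32). Icos, a gate gene, was at -0.51 (-0.74 to -0.28), and at -0.52 in filtered members.

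Class II genes were highest in MSC-i.v members once cells were filtered. The 4 class II genes with a mean of at least 10 CPM had a median MSC-i.v over SCI ratio of 1.5 in all members and 1.82 in filtered ones, with 3 of the 4 past 2-fold in each, beside 0.82 and 0.70 in gate-negative cells and -0.10 and -0.07 over all genes of members. RT1-Da, a class II alpha chain, stood at 20.4, 14.4, 12.0 and 68.2 CPM in filtered members. The MSC-i.v value lay above the other 3, with 2.24 (1.31 to 3.26) over SCI, 0.52 in filtered gate-negative cells and 0.01 in B cells. Its 42 UMIs came from 20 cells with at most 11 in 1. Cd74 gave 1.95 (1.19 to 2.77), but 23 of its 53 UMIs in filtered MSC-i.v members were in 1 cell. The share of marked barcodes in MSC-i.v members, 13.7% against 3.80% in SCI, moved in the same direction; its part in what was left after filtering was not tested. Activated rat T cells are known to express class II molecules, and whether the members made this RNA themselves was not tested.

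Isg15 stood at 77.2, 75.6, 87.7 and 143 CPM in all members and at 112, 67.8, 77.2 and 197 CPM in filtered ones, highest in MSC-i.v in both. Its MSC-i.v over SCI ratio was 0.92 (0.53 to 1.32), and 1.54 (1.08 to 2) in filtered members, with 0.60 in gate-negative cells and -1.04 in B cells. Capg was at 1.10 (0.74 to 1.45) and, in filtered members, at 1.24 (0.83 to 1.67), with 0.81 in gate-negative cells. Itgb1, a gate gene by which the members were chosen, was at 0.37 (0.18 to 0.55), as a description only. For the interferon list, 4 of 14 filtered genes were past 2-fold upward and the median was 0.39, beside 0.45 in gate-negative cells.

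The 2 MSC libraries were set against each other directly. The highest MSC-i.t over MSC-i.v ratios were those of Cenpf, Top2a, Ccl5, S100a9, Ube2c, Tubb2a, Smc2 and Fchsd2, of which 5 had an interval above 0 in filtered members. Of the 6 with a ratio in gate-negative cells 0 were past 2-fold upward, and S100a9 was at -1.23; Cenpf and Top2a had none there. Without the MSC-i.t cell with the most Ccl5 UMIs, Ccl5 was at -0.11 (-0.60 to 0.39). Gated after thinning, the ratios of Top2a, Ube2c and Ccl5 turned to -2.24, -1.50 and -1.14. Top2a stood at 29.0, 39.6, 64.1 and 9.82 CPM, at 2.71 (1.76 to 3.81), from 3 MSC-i.t cells and 5 MSC-i.v cells. Ube2c, a mitotic ubiquitin-conjugating enzyme, was at 1.70 (0.97 to 2.5). The cell cycle list had 3 of 13 genes past 2-fold upward in both sets, with medians of 0.30 and 0.40, and Mki67 was at 0.73 (0.09 to 1.39). RT1-Da was at -2.5 (-3.56 to -1.55) in filtered members, Isg15 at -1.35 (-1.78 to -0.92) and Capg at -1.53 (-1.96 to -1.10). Itgb1, a gate gene by which the members were chosen, was at -0.85 (-1.07 to -0.63) in filtered members, as a description only. In gate-negative cells Isg15 was at -0.79 and Capg at -0.79. Ccr6 was at -1.25 (-1.76 to -0.76) and, in filtered members, at -1.74 (-2.41 to -1.10); gated after thinning it was at 0.26.

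**Figure D5:**
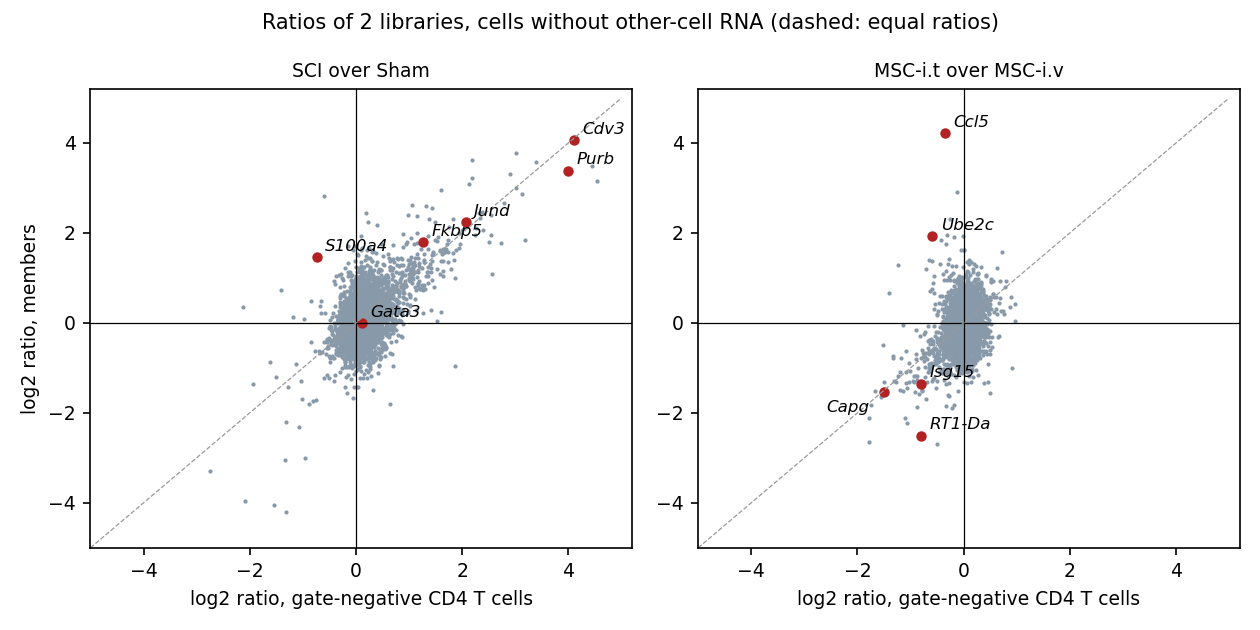
Log2 ratio of CPM between 2 libraries in filtered members (y axis) against the same ratio in filtered gate-negative CD4 T cells (x axis), 1 point for each gene with a mean of at least 20 CPM, for SCI over Sham (left) and MSC-i.t over MSC-i.v (right). Cdv3, Purb, Jund and Fkbp5 lie high on both axes at the left, whereas Ube2c and Ccl5 at the right are high on the y axis only.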

How the data were processed

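Single-cell RNA of rat blood was measured in 4 libraries, 1 for each group. The deposited values are raw UMI counts of 25340 genes over 6794880 barcodes per library; Cell Ranger 4 wrote them per the file headers, and the submitters' processing notes name the build mRatBN7.2; the extract protocol in the labels describes a bulk RNA preparation, so the cell preparation is not given in the sources used here. Kept barcodes numbered 8105 to 16691 per library, with 50893683 to 77670765 UMIs. No doublet caller was run. UMIs were summed per library and kind of cell. Shares carry exact Clopper-Pearson, CPM exact Poisson and library ratios exact conditional binomial intervals (95%); they cover counting error only. A count of 0 allows 3 counts. Within-library contrasts used edgeR 4.0.16 (TMM, quasi-likelihood, library as a block) in R 4.3.3 on genes with a mean of at least 5 CPM over 8 sums; the scripts were tested on simulated data. Other work used Python 3.11.15, numpy 2.4.6, pandas 2.3.3, scipy 1.17.1 and matplotlib 3.10.9, and DESeq2 1.42.0 was an alternative. Thinning drew 3000 UMIs once per cell (seed 1). Promoters were matched by symbol.

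Named genes were the 15 highest and 15 lowest called log2 differences against gate-negative cells, and the 8 highest and 8 lowest of each library comparison, at a mean of at least 20 CPM, without genes lacking their own symbol and without mitochondrial, ribosomal, hemoglobin, immunoglobulin, T cell receptor segment, sex-linked and rule genes; filtered cells were named by the same rule. Added to these were genes of 23 lists and the marker lists, and genes named beyond this were chosen after their values were seen. The members and lists were chosen with earlier results of these data known. Alternatives changed the gate, depth, mitochondrial limit, scaling, filter, block, tool and libraries. Comparisons of MSC-i.t and MSC-i.v with Sham were computed and are not described. Some named genes are not reported here.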

Additional observations from a re-analysis of the deposited data

How the results depend on the processing

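The log2 ratio of shares left its counting interval as follows. For SCI over Sham it was -0.46 with the gate without Icos. For MSC-i.v over SCI it was -0.44 at a threshold of 2 UMIs, 0.33 without Icos, -0.37 without Itgb1 and -0.41 over all T cells. For MSC-i.t over MSC-i.v it was 0.30 at a threshold of 2 UMIs, -0.44 after thinning and 0.26 over all T cells. The cause was not tested. Genes past 2-fold within members numbered 1515, 1467, 1505 and 1383 after thinning (SCI over Sham, MSC-i.t over SCI, MSC-i.v over SCI, MSC-i.t over MSC-i.v), when only 65 to 69 members were left, 310, 240, 286 and 95 at a mean of at least 20 CPM, where fewer genes were tested, and 458 for MSC-i.t over MSC-i.v in filtered members. Genes higher than in gate-negative cells numbered 865 without a filter on low values, 145 at 20 CPM, 256 between 3000 and 8000 UMIs and 214 in filtered cells; lower genes numbered 134 without a filter and 18 at 20 CPM. Leaving out 1 library gave 388 to 448 higher and 59 to 84 lower genes, in filtered cells 194 to 209 and 58 to 92 (added after seeing the data), and against Foxp3-positive cells 43 to 147 and 17 to 141, beside 13 and 14 in filtered cells (both also added after seeing the data). Reversed values were those of Fcnb against gate-negative cells in filtered cells (-0.12), of Ccl5 (-1.13 to 2.21 over the libraries left out) and Gzmm (-1.03 to 1.78) in filtered cells, both lowest without MSC-i.t, of S100a4 for SCI over Sham in filtered members (1.46), and after thinning of Cd74 (0.97) and RT1-Da (0.80) for SCI over Sham, of Ccl5 for MSC-i.t over SCI (-0.39), and of Ccl5 (-1.14), Top2a (-2.24), Ube2c (-1.50) and Ccr6 (0.26) for MSC-i.t over MSC-i.v, where Ccl5 was also at -0.11 without the MSC-i.t cell with the most of its UMIs (added after seeing the data). Without the library block 412 genes were higher and 50 lower. No paired analysis was possible because each group had 1 library and the labels gave no shared replicate numbers beyond it. Counts limit what was seen: a level under 3 UMIs of a library's members cannot be told from 0.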

Other observations

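Gata3 and the 2 chemokine receptors were also read together in single members, as a description with no test. Over the 4 libraries, Gata3 met Cxcr3 in 46 members, where the product of the 2 shares was 37.7, and Ccr6 in 58, where it was 51.6. By library, Gata3 was seen in 66.7% of the Sham members with Cxcr3 and 43.4% of those without. The same shares were 40% and 47.8% for SCI, 76.5% and 43.8% for MSC-i.t, and 39.1% and 39.6% for MSC-i.v. The direction was not the same in every library, and members with Cxcr3 numbered only 17 to 24 in each.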
